A study of Rattus norvegicus with 12 samples.

Results

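Transcripts of 8 Krüppel-like factors, Klf2, Klf4, Klf5, Klf6, Klf7, Klf9, Klf10 and Klf15, were followed in aortic smooth muscle cells of newborn rats before and after stimulation of thrombin receptors. The genes were taken by symbol: a probe set counted when the array annotation gave it a single symbol and that symbol was one of the 8. They are 8 of the 14217 genes named in this way, with 24 probe sets, of which 19 were bright enough to be tested. The 5 dimmer ones never exceeded a signal of 25.7. Every gene kept at least 1 tested probe set, and its brightest tested probe set stands for it below unless another is named.

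RNA came from primary cultures held overnight without serum in medium with albumin, and was hybridised to 12 one-colour Affymetrix arrays, 2 in each of 6 groups. In the thrombin experiment, unstimulated cells were set against cells given thrombin at 2 U/ml for 120 min. In the TRAP experiment the stimulus was TRAP, a peptide that activates a thrombin receptor, at 25 µM for 120 min. In the TRAP after PTX experiment the cells had pertussis toxin (PTX, 200 ng/ml) for 24 h before the same peptide at the same dose and time. Thrombin is the clotting protease and switches its receptors on by cleaving them, the peptide does so without cleavage, and PTX blocks the coupling of receptors to Gi proteins. Each experiment has unstimulated (basal) arrays of its own. For those of the TRAP after PTX experiment the labels list no agent and do not state whether the toxin was present. Separate cultures are not stated for the replicates either, so the p-values cover only the spread among these arrays, which may be technical.

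Krüppel-like factors are transcription factors whose zinc fingers, at the end of the protein, bind GC-rich and CACCC sequences in promoters. Family members share their sites and can act on the same promoter in opposite directions, some as activators and some as repressors. In the vessel wall, Klf4 is known for repressing contractile genes when smooth muscle cells change phenotype, Klf5 for driving growth and vascular remodelling, Klf15 for restraining them, and Klf2 for its role in endothelium under flow.

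Array signals are linear intensities whose scale differs between probe sets, so a signal is compared only between arrays, never between genes. Median signals of the arrays lay between 39.7 and 53.6, and replicate arrays correlated with r from 0.983 to 0.991. Arrays of the thrombin experiment correlated with the other 8 with r from 0.913 to 0.941, below the 0.972 to 0.991 found among those 8. Within the TRAP experiments the arrays also fell into 2 sets that cross the labels, as read from these data: Saa3, an acute-phase gene, was at most 22.8 on replicate 2 of TRAP, replicate 1 of TRAP after PTX and the pair of basal TRAP arrays, and at least 222.5 on the other 4. Calls from these experiments are therefore also given without TRAP replicate 1 and TRAP after PTX replicate 1, the stimulated arrays that do not share the set of their basal arrays. The array left in each group is then assumed to vary like the other groups. All 8 smooth muscle markers were bright enough to test, but Myh11, Des and Synpo2 were dim, never above 65.8, 52.9 and 40.3. The summed signal was 9833.1 to 13523.9 in the thrombin experiment and 14998 to 19409.4 in the others. Most of it was Acta2 and Tagln, with means of 7221 and 5561, so the sum says little about the dim markers. Of 7 endothelial markers on the array only Tek was bright enough, while Pecam1 stayed at or below 7.5 and the list summed to 83.1 to 115.1 in the thrombin experiment and 51.5 to 107.6 in the others. Of 7 leukocyte markers Cd14 and Csf1r were, while Ptprc stayed at or below 12. Adventitial fibroblast markers were tested for 5 of 6 genes, with summed signals of 5447.2 to 8304.9, and adipocyte markers for 1 of 5, with 133.9 to 200.5. No marker was listed at 0.

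Responses are differences of log2(signal + 16) between a stimulated group and its own basal group, with a standard error (SE), and are called when limma's adjusted p is under 0.05. After thrombin, 2 of the 8 genes rose (Klf6, Klf7) and 1 fell (Klf15), while of all 18625 tested probe sets 4.74% were called, 2.63% higher and 2.10% lower. After TRAP none rose and 2 fell (Klf7, Klf15), while 3.90% of all probe sets were called, 1.84% higher and 2.07% lower. At an unadjusted p under 0.05 limma had 3 members higher and 2 lower after thrombin, and 2 higher and 3 lower after TRAP. After PTX and TRAP it had 3 higher and 3 lower. The share of all probe sets at that unadjusted threshold was not counted. After PTX and TRAP 1 rose (Klf9) and 2 fell (Klf7, Klf15), while 2.71% of all probe sets were called, 1.68% higher and 1.03% lower. In the average of the 3 responses 3 rose (Klf6, Klf9, Klf10) and 2 fell (Klf2, Klf15), while 13.2% of all probe sets were called, 5.55% higher and 7.62% lower. Without the 2 arrays outside the set of their basal arrays, Klf7, Klf9 and Klf15 were at -0.80, 0.50 and -1.33 after TRAP. After PTX and TRAP they were at -0.99, 0.50 and -1.56. The averages were then -0.30 for Klf2, 0.62 for Klf6, 0.39 for Klf9, 0.34 for Klf10 and -1.32 for Klf15. The share of all probe sets called in that fit was not counted. Median responses of the 8 genes were 0.20 after thrombin, 0.08 after TRAP and 0.01 after PTX and TRAP, with a median over all probe sets of -0.04 in each. In each experiment 6 of the 8 genes had stimulated arrays that did not overlap the basal arrays, as did 47.4%, 48.6% and 45.2% of all probe sets. In bulk RNA of this kind, fewer cells of a type and less RNA per cell cannot be told apart.

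**Figure D1:**
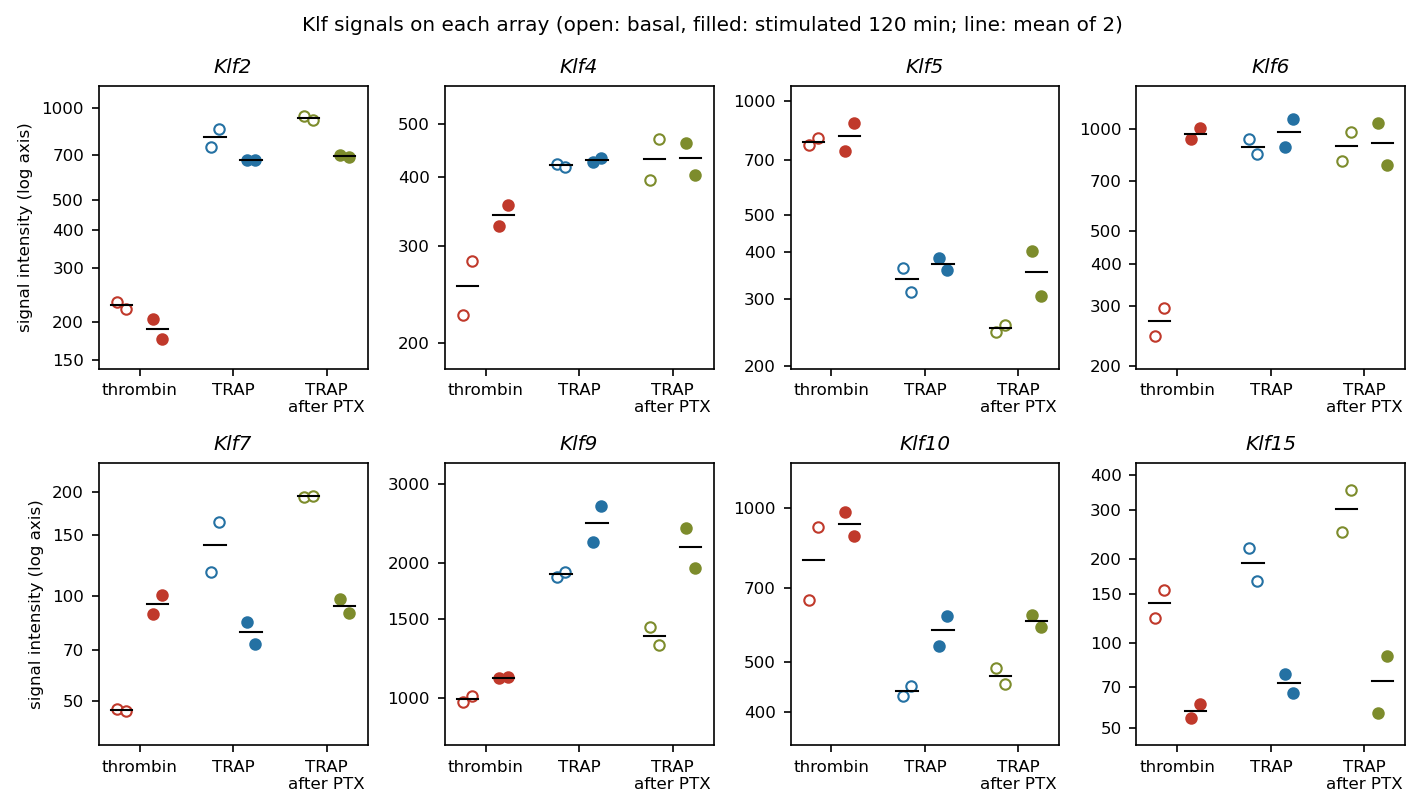
Signal intensity (log axis, a scale of its own in each panel) of the 8 Krüppel-like factors on every array, by experiment. Open circles are basal arrays, filled circles arrays after 120 min, and lines the means of 2. Klf6 climbed from 245.4 and 296.9 to 932.2 and 1005.3 after thrombin, while Klf15 was lower on both stimulated arrays of every experiment.

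**Figure D2:**
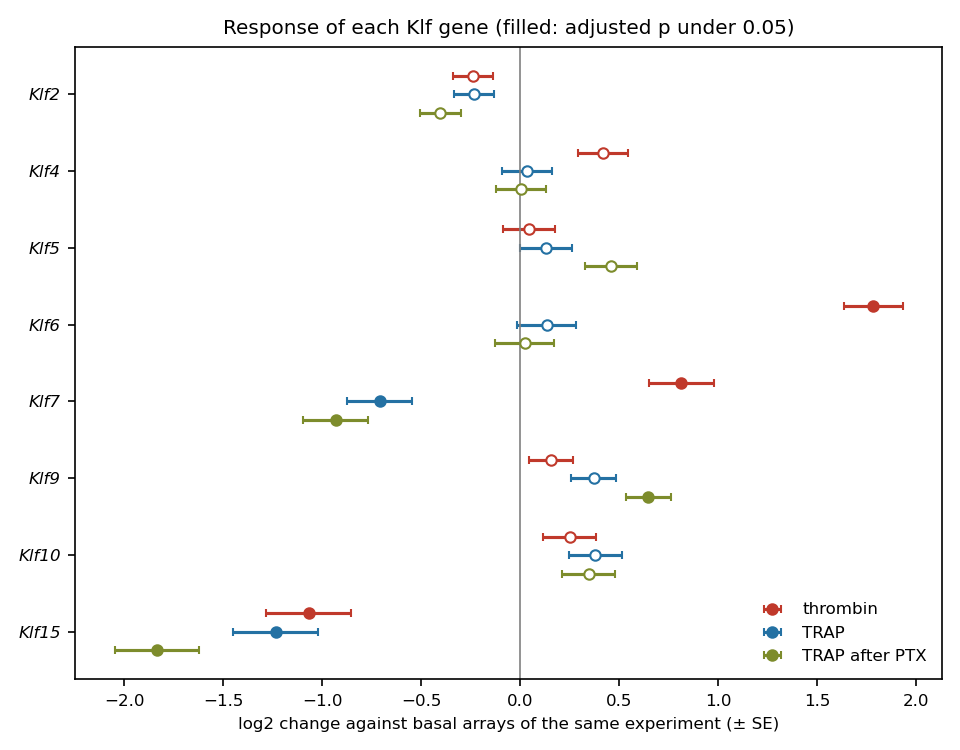
Responses (log2 difference of signal + 16, stimulated minus basal, with SE) of the 8 genes after thrombin, TRAP, and PTX and TRAP. Klf15 lies below 0 in all 3 responses, and Klf7 lies above 0 after thrombin and below 0 after TRAP with or without PTX.

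Klf6, a factor of the injury response that is known to act on genes of transforming growth factor beta signalling, had the largest rise of the 8 genes, after thrombin, and no call in the TRAP experiments. The 250 bases before its start site are shown because Klf6 is the member with the largest rise; they lie at chr17:69458479-69458728 on the minus strand of the rat assembly GRCr8 and come from RefSeq. Capitals mark matches, on either strand, to a GC box (GGGCGG), the CCAAT box, an E box (CACGTG) and a CArG box, the element bound by serum response factor.
Klf6 promoter: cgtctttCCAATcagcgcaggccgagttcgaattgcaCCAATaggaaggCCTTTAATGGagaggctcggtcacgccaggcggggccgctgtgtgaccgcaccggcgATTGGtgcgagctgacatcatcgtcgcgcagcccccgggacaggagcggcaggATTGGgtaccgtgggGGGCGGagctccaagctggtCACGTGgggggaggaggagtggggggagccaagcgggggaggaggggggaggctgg
Among all 27457 promoters of the same length, 32.4% held the GC box, 34.3% the CCAAT box, 5.79% this E box and 1.5% a CArG box. Of the 6 members with a promoter entry, only Klf6 held a CArG box, 192 to 201 bases before the start. A match of letters is a description and does not show that a factor binds there.

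Basal signals of Klf6 in the thrombin experiment were 245.4 and 296.9, and thrombin arrays were at 932.2 and 1005.3, means of 271 ± 36.4 and 969 ± 51.7 (SD, n = 2). Basal TRAP arrays were at 930.3 and 843.3 and TRAP arrays at 885.3 and 1070.4. In the PTX experiment the basal arrays were at 803.2 and 981 and the stimulated arrays at 1038.3 and 782.1. The groups were fully apart in the thrombin experiment and overlapped in the other two, and both basal thrombin arrays stood far below all 10 others. Klf6 rose 3.44-fold after thrombin (log2 1.78 ± 0.15, adjusted p = 1.2e-05). After TRAP the difference was 0.13 ± 0.15 (adjusted p = 0.735) and after PTX and TRAP 0.02 ± 0.15 (adjusted p = 0.961). The thrombin response exceeded the TRAP response by 1.65 ± 0.21 (adjusted p = 0.00328), in a comparison that called 0.532% of all probe sets. Stimulated thrombin and stimulated TRAP arrays differed by -0.01 ± 0.15 (adjusted p = 0.972), where 36.7% of all probe sets were called, and basal thrombin arrays differed from the mean of the other basal groups by -1.66 ± 0.13 (adjusted p = 2.89e-07). The average of the 3 responses, 0.65 ± 0.09 (adjusted p = 0.000233), joins the called thrombin response with the uncalled others. Stimulus and experiment cannot be told apart in these comparisons.

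The other probe sets of Klf6 rose as well after thrombin, 1388986_at by 1.52 ± 0.13 (adjusted p = 1.35e-05) and 1395557_at by 1.60 ± 0.23 (adjusted p = 0.000986). For 1388986_at, whose stimulated arrays lay above the basal arrays in all 3 experiments, the responses were 0.34 after TRAP (adjusted p = 0.189) and 0.48 after PTX and TRAP (adjusted p = 0.0653). The difference between thrombin and TRAP was 1.18 ± 0.18 for it (adjusted p = 0.00964) and 1.44 ± 0.32 for 1395557_at, which missed the threshold (adjusted p = 0.0754). Klf6 kept its call after thrombin whichever single array was left out.

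Klf7, a widely expressed member best known from developing neurons, moved in opposite directions in the thrombin and TRAP experiments. Its promoter, at chr9:73020057-73020306 on the minus strand of GRCr8 (RefSeq), is shown because its gene rose with Klf6 after thrombin, with the GC box in capitals.
Klf7 promoter: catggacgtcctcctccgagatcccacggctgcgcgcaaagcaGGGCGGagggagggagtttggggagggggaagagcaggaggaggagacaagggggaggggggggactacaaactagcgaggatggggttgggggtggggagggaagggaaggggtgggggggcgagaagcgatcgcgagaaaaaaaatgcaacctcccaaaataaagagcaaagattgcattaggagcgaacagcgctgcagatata
It shared the GC box with Klf6 but had no CCAAT box, E box or CArG box in these 250 bases.

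Basal thrombin arrays read 47.3 and 46.6 for Klf7, and thrombin arrays 88.6 and 100.9. Basal TRAP arrays were at 117.5 and 162.9, falling to 84.5 and 72.9 with TRAP. Those of the PTX experiment were at 193.4 and 193.9, against 98.3 and 89.5 after PTX and TRAP. In every experiment the stimulated arrays lay apart from the basal arrays, above them with thrombin and below them in the TRAP experiments. The 6 basal arrays spread from 46.6 to 193.9, and the 6 stimulated arrays from 72.9 to 100.9. Klf7 rose by 0.81 ± 0.16 after thrombin (adjusted p = 0.0109), fell by 0.71 ± 0.16 after TRAP (adjusted p = 0.0264) and fell by 0.93 ± 0.16 after PTX and TRAP (adjusted p = 0.00812). Thrombin and TRAP responses differed by 1.52 ± 0.23 (adjusted p = 0.00931). A difference of this kind, with the responses called in opposite directions, was found in 8 of all tested probe sets (0.0430%), 2 of which belong to Klf7.

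The 3 tested probe sets of Klf7 shared the direction in all 3 experiments but not every call. 1380363_at rose after thrombin (0.94, adjusted p = 0.0038), fell after TRAP (-0.66, adjusted p = 0.0342) and was at -0.54 after PTX and TRAP (adjusted p = 0.0954). 1384497_at rose after thrombin (0.87, adjusted p = 0.0496) and was at -0.61 and -0.18 in the other experiments (adjusted p = 0.197 and 0.742). The calls of Klf7 depended on single arrays and settings. The call after thrombin was lost without basal thrombin replicate 1 (adjusted p = 0.0623) or thrombin replicate 2 (adjusted p = 0.118). The call after TRAP was lost without basal TRAP replicate 2 (-0.50, adjusted p = 0.292), TRAP replicate 1 (-0.80, adjusted p = 0.0627) or TRAP replicate 2 (-0.62, adjusted p = 0.173), and also with no filter, median centring or quantile normalization (adjusted p = 0.0574, 0.0809 and 0.0618). That after PTX and TRAP was lost without basal replicate 2 (-0.93, adjusted p = 0.0578) or stimulated replicate 2 (-0.88, adjusted p = 0.053), and with the mean of the 3 probe sets (-0.55, adjusted p = 0.0589). The difference between thrombin and TRAP was lost without basal TRAP replicate 2 (1.31, adjusted p = 0.0585) or thrombin replicate 2 (1.44, adjusted p = 0.0589). Without the 2 arrays outside the set of their basal arrays, the responses were -0.80 after TRAP (adjusted p = 0.0709) and -0.99 after PTX and TRAP (adjusted p = 0.0522), and the difference between thrombin and TRAP stayed called (1.61, adjusted p = 0.0262).

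**Figure D3:**
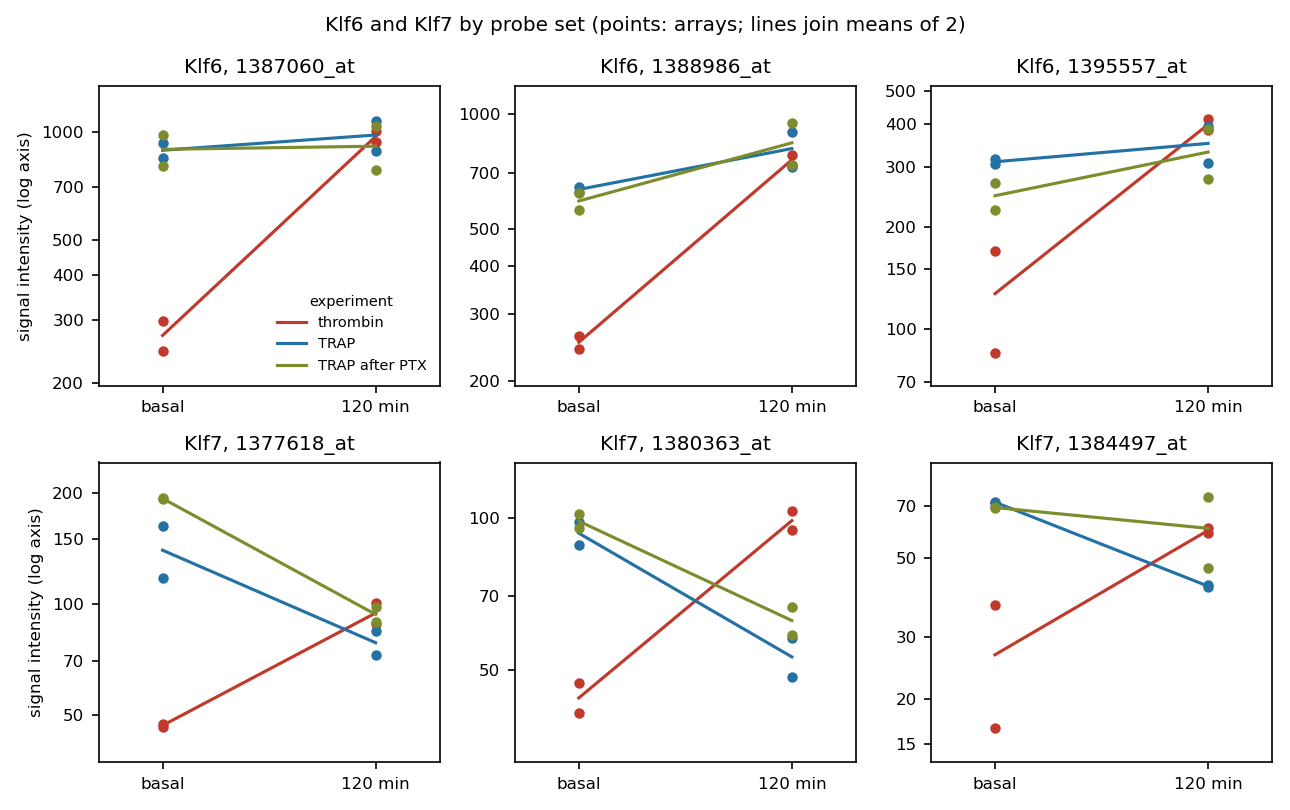
Signal intensity (log axis) of the 3 tested probe sets of Klf6 and the 3 of Klf7 in each experiment. Points are basal and stimulated arrays, and lines join the group means. All 3 Klf6 probe sets rose after thrombin, by 1.52 to 1.78 as log2 difference of signal + 16. The means of all 3 Klf7 probe sets were higher after thrombin and lower after stimulation in the TRAP experiments.

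Klf15, a factor induced by glucocorticoids that restrains growth and remodelling in heart and vessels, was lower after each of the stimuli. Its promoter is shown because it is the member with the largest fall. It lies at chr4:124522765-124523014 on the plus strand of GRCr8 (RefSeq), and capitals mark the core of the cyclic AMP response element (TGACG, on either strand), a CCAAT box, and an E box (CACGTG) that overlaps the second core.
Klf15 promoter: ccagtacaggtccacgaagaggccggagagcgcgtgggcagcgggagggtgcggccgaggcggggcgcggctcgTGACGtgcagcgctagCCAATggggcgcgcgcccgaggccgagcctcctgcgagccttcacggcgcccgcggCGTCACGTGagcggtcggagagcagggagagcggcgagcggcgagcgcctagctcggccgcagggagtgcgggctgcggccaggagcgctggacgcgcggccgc
With 77.2% G and C and 41 CpG dinucleotides it stood at the 97.7th percentile of GC content, where the median promoter had 52% and 6 CpG. Klf6 had 67.2% and Klf7 59.6%. The TGACG core was found in 19% of all promoters, and in Klf5, Klf9 and Klf15 among the 6 members with an entry. The full element (TGACGTCA, 1.7% of promoters) and an EGR site (GCGNGGGCG, 4.53%) were in none of the 6, CACCC (49.4%) in Klf5, Klf7, Klf9 and Klf15, an AP-1 site (TGANTCA, 6.36%) in Klf9, and TATAAA (13.1%) in Klf4.

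Klf15 signals were 123.1 and 154.5 on the basal thrombin arrays and 54.2 and 60.7 after thrombin. In the TRAP experiment they were 218.9 and 167 before and 78 and 66.4 after. In the PTX experiment they were 248.8 and 353.3 before and 56.3 and 90.3 after. Every stimulated array of all 3 experiments, at 90.3 or less, lay below every basal array, at 123.1 or more. Klf15 fell by 1.07 ± 0.21 after thrombin (adjusted p = 0.0105), by 1.24 ± 0.21 after TRAP (adjusted p = 0.00537) and by 1.83 ± 0.21 after PTX and TRAP (adjusted p = 0.000334). On average it fell by 1.38 ± 0.12 (adjusted p = 7.55e-06), to 0.384 of the basal level. Among all tested probe sets 27 (0.145%) were called lower in each of the 3 responses. The second probe set, 1381396_s_at, fell by 1.34 after PTX and TRAP (adjusted p = 0.0108) and by 0.99 on average (adjusted p = 0.000465), and was at -0.71 after thrombin (adjusted p = 0.133) and -0.91 after TRAP (adjusted p = 0.058).

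The average fall of Klf15 held under all 28 alternatives run for it, between -1.56 and -0.99. Single calls were less stable. The call after thrombin was lost without basal thrombin replicate 2 (adjusted p = 0.0677), thrombin replicate 1 (adjusted p = 0.0900) or thrombin replicate 2 (adjusted p = 0.0543), and that after TRAP without basal TRAP replicate 1 (-1.06, adjusted p = 0.0878). Without the 2 arrays outside the set of their basal arrays, Klf15 still fell, by 1.33 after TRAP (adjusted p = 0.0101) and by 1.56 after PTX and TRAP (adjusted p = 0.00669).

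Klf9, which responds to glucocorticoids and thyroid hormone, rose in the average response and after PTX and TRAP. Signals in the thrombin experiment were 981 and 1007.8 before and 1105.5 and 1112.7 after. With TRAP they went from 1862.3 and 1911.2 to 2231.1 and 2680.4, and with PTX and TRAP from 1440.7 and 1309.6 to 2398.4 and 1946.2. Stimulated arrays were higher than basal arrays without overlap in all 3 experiments. Klf9 rose by 0.39 ± 0.07 on average (adjusted p = 0.00148) and by 0.65 ± 0.11 after PTX and TRAP (adjusted p = 0.00806). Its responses to thrombin (0.16, adjusted p = 0.533) and TRAP (0.37, adjusted p = 0.0952) did not pass. Klf9 also moved with the 2 sets of arrays, being higher in the set with low Saa3. With the sets as a block in the fit, the responses to TRAP and to PTX and TRAP were both 0.51 (adjusted p = 0.00754 and 0.015). Without the 2 arrays outside the set of their basal arrays both were 0.50 (adjusted p = 0.0351 and 0.0691). The call after PTX and TRAP was also lost without basal replicate 2 (0.58, adjusted p = 0.0827) or stimulated replicate 1 (0.50, adjusted p = 0.0958). The second probe set, 1387882_at, was at 0.24 on average (adjusted p = 0.345). After PTX and TRAP it was at 0.43 (adjusted p = 0.433) and after TRAP at -0.02 (adjusted p = 0.988), with overlapping arrays in both. With thrombin its stimulated arrays were higher without overlap (0.30, adjusted p = 0.614).

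Klf10, an early gene of transforming growth factor beta signalling, rose in the average. Basal and stimulated signals were 662.6 and 921.5 against 984 and 883.3 with thrombin, 430.1 and 449.2 against 538.5 and 616.5 with TRAP, and 486.1 and 453.7 against 618.1 and 585.2 with PTX and TRAP. The arrays overlapped with thrombin and were higher without overlap in the TRAP experiments. Responses of 0.25, 0.38 and 0.35 did not pass singly (adjusted p = 0.362, 0.159 and 0.204), and their average of 0.32 ± 0.08 did (adjusted p = 0.0137). Without basal thrombin replicate 2 the thrombin response was 0.48 and called (adjusted p = 0.0414).

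Klf2, known from endothelium and resting lymphocytes, was lower after each stimulus on its brightest probe set. Signals were 232.5 and 221 against 204 and 176.1 with thrombin, 747.4 and 856.6 against 678.3 and 678.1 with TRAP, and 943.4 and 911.1 against 703 and 690.5 with PTX and TRAP. No stimulated array overlapped its basal arrays, but the level in the thrombin experiment was far below that in the others before and after. Klf2 fell by 0.29 ± 0.06 on average (adjusted p = 0.00536), while the single responses of -0.24, -0.23 and -0.40 did not pass (adjusted p = 0.235, 0.275 and 0.0556). That call was lost with arrays centred on their medians (-0.23, adjusted p = 0.0846). In the average no other tested probe set of Klf2 passed: 1375248_at was at 0.22 on average (adjusted p = 0.0881), 1386041_a_at at -0.32 (adjusted p = 0.0814) and 1394068_x_at at -0.15 (adjusted p = 0.388). Summed leukocyte markers, most of whose signal was Cd14, were 568.2 to 665.1 in the thrombin experiment and 360.8 to 488.8 in the others. The part of endothelial or leukocyte RNA in the Klf2 signal was not tested.

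Klf4 and Klf5, the members best known in vascular smooth muscle, were called in no response. Nor were the other tested Klf5 probe sets, 1385961_at and 1368363_at. After TRAP they were at -0.23 and 0.05 (adjusted p = 0.602 and 0.932). After PTX and TRAP they were at 0.60 (adjusted p = 0.105) and, with overlapping arrays, at 0.09 (adjusted p = 0.801). Klf4 was at 224.2 and 282.2 before thrombin and 326.9 and 356.6 after, with no overlap (0.42 ± 0.13, adjusted p = 0.0806), and it passed only without basal thrombin replicate 2 (0.57, adjusted p = 0.0317). In the TRAP experiments it stayed between 396 and 469.9 on all 8 arrays, with responses of 0.03 (adjusted p = 0.944) and 0.00 (adjusted p = 0.994). The average response of Klf5 was 0.21 (adjusted p = 0.0884), and it was called with arrays centred on their medians (0.28, adjusted p = 0.0488). On average 1385961_at and 1368363_at were at 0.175 and 0.032 (adjusted p = 0.316 and 0.861). Klf5 was at 767.3 and 798.9 before thrombin and 741.8 and 879 after, which overlap (0.04 ± 0.13, adjusted p = 0.908). With TRAP it went from 363.8 and 314.3 to 385.9 and 358.4, again with overlap (0.13, adjusted p = 0.704). With PTX and TRAP it went from 246 and 256.4 to 403.2 and 305.2 without overlap, a difference of 0.46 ± 0.13 that missed the threshold (adjusted p = 0.0893). It passed without stimulated replicate 2 (0.65, adjusted p = 0.0377), which leaves only the array outside the set of its basal arrays. Without the 2 arrays of that kind it was 0.27 (adjusted p = 0.468), and with the sets as a block 0.39 (adjusted p = 0.204).

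Before stimulation the 3 basal groups differed in all 8 genes by limma's F test, where 42.2% of all tested probe sets differed. With the sets of arrays as a block 7 were called, Klf15 having a range of 0.65 (adjusted p = 0.0967), and Klf15 was also lost without replicate 2 of the basal PTX arrays (0.78, adjusted p = 0.0515). Against the mean of the other basal groups, a contrast chosen after these levels were seen that called 46.4% of all probe sets, basal thrombin arrays were lower in 6 genes and higher in 2. Klf5 (1.38 ± 0.11, adjusted p = 5.79e-07) and Klf10 (0.76 ± 0.12, adjusted p = 0.000128) were the higher ones, and all 3 Klf5 probe sets shared this, at 1.29 to 1.47. Klf2 was lowest in relation to the other groups (-1.85 ± 0.09, adjusted p = 3.81e-09), and 2 of its 4 probe sets shared this, with 1375248_at at 0.06. The second probe sets of Klf9 and Klf15 were at -0.05 and -0.27 (adjusted p = 0.88 and 0.321). Neither of them passed the F test over the 3 basal groups (adjusted p = 0.217 and 0.224). Summed smooth muscle markers, mostly Acta2 and Tagln, were also lower on the basal thrombin arrays (9833.1 and 10358.3) than on the other basal arrays (14998 to 17588.7). Their part in these differences was not tested. Between the basal groups of the TRAP and the TRAP after PTX experiments no member was called by limma, as were 0.0430% of all probe sets. At limma's unadjusted p under 0.05 there were 4 members, and the share of all probe sets at that threshold was not counted.

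The range between the highest and lowest group mean, on the log2 scale, shows how far the experiments stood apart before and after stimulation. For Klf6 it was 1.66 among basal groups and 0.11 among stimulated groups, for Klf7 1.74 and 0.23, and for Klf15 1.02 and 0.26. Klf4 went from 0.74 to 0.33. In these 4 genes the stimulated groups lay closer together than the basal groups. A second Klf7 probe set, 1380363_at, still differed by 0.73 ± 0.16 between stimulated thrombin and TRAP arrays (adjusted p = 0.0028). The range was also smaller after stimulation for Klf2 (1.96 and 1.79), Klf5 (1.58 and 1.17) and Klf10 (0.81 and 0.68). Klf5 narrowed about as much as Klf4. Only Klf9 was further apart after stimulation (0.91 and 1.13). Its second probe set, 1387882_at, had a basal range of 0.56. On that probe set stimulated thrombin arrays differed from stimulated TRAP arrays by -0.01, and stimulated TRAP after PTX arrays by -0.12. Over all tested probe sets 55.9% had a smaller range after stimulation, with medians of 0.43 and 0.40, and these ranges were not tested.

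**Figure D4:**
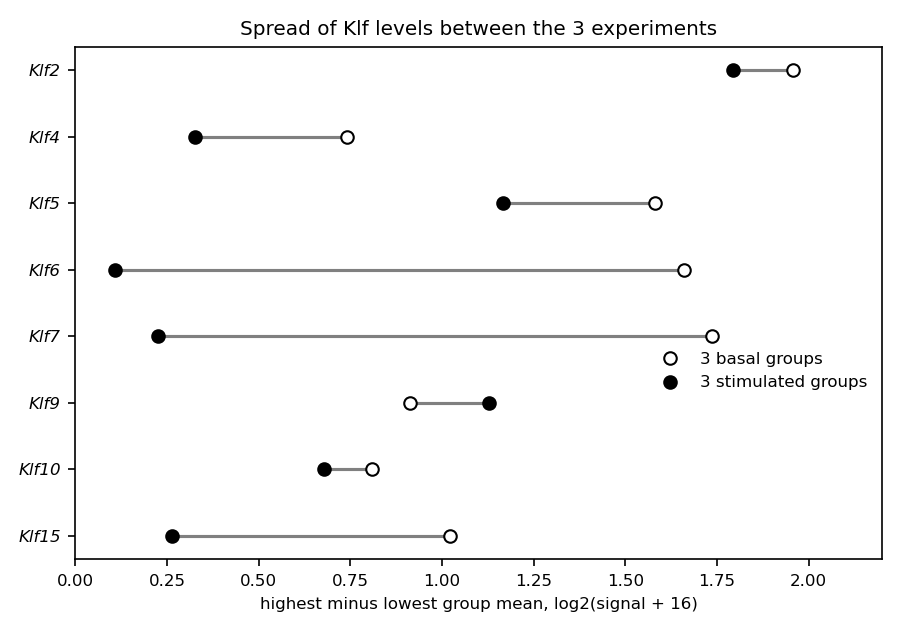
Range of the 3 group means (log2 of signal + 16, highest minus lowest) among basal and among stimulated groups for each gene. Medians over all tested probe sets, which are not drawn, were 0.43 and 0.40. The range of Klf6 shrank from 1.66 to 0.11 and that of Klf7 from 1.74 to 0.23, while Klf2 and Klf5 stayed above 1.

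Pertussis toxin was compared through the TRAP response with and without it. None of the 8 genes was called by limma, none had an unadjusted p under 0.05, and 0.129% of all probe sets were called. The differences were -0.60 ± 0.30 for Klf15 (adjusted p = 0.649), 0.33 ± 0.19 for Klf5 (adjusted p = 0.71), 0.28 ± 0.16 for Klf9 (adjusted p = 0.715) and -0.11 ± 0.21 for Klf6 (adjusted p = 0.936). These values depended on the sets of arrays, which the comparison crosses. With the arrays outside the set of their basal arrays left out, they were -0.23 for Klf15, 0.19 for Klf5, -0.01 for Klf9 and -0.45 for Klf6. The sets as a block give these same values by construction in this design, so they are no second check. With that block no member was called. Between the stimulated groups themselves, with and without PTX, limma called none of the 8 genes, none at an unadjusted p under 0.05, and 0.0913% of all probe sets. These counts rest on the brightest probe sets. Another Klf5 probe set, 1385961_at, had a PTX effect of 0.83 ± 0.26 (limma's unadjusted p = 0.0065, adjusted p = 0.329). Between the stimulated groups it differed by 0.59 ± 0.18 (unadjusted p = 0.0066, adjusted p = 0.44). The third, 1368363_at, was at 0.05 and -0.09 in these comparisons.

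Among 19 further members of the Klf and Sp families 10 were on the array and 8 bright enough to test. None was called in a single response, and 1, the repressor Klf3, fell in the average (-0.34 ± 0.08, adjusted p = 0.0115). Klf3 signals were 708 ± 1.56 before and 534 ± 92.6 after thrombin (SD, n = 2). Klf16 and Klf13 were at 0.63 and 0.64 after thrombin (adjusted p = 0.0592 and 0.0733), and Klf11, a relative of Klf10, at -0.34 on average (adjusted p = 0.0693). Median responses of the relatives were 0.05, -0.08 and -0.19. One relative, Sp4, named after its value was seen, differed among the basal groups (range 0.90, adjusted p = 0.0346).

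Of 24 genes reported as targets of Krüppel-like factors 18 were tested; 3 rose and 1 fell after thrombin, 3 rose after TRAP and none was called after PTX and TRAP. On average 5 rose and 1 fell, with median responses of 0.23, 0.03 and 0.16 in the 3 experiments. Edn1, which encodes the vasoconstrictor endothelin, rose after thrombin (1.33, adjusted p = 0.000934) and TRAP (0.88, adjusted p = 0.0177). Cdkn1b, a cell cycle inhibitor, fell after thrombin (-0.73, adjusted p = 0.00351), and Cnn1, a contractile gene that Klf4 represses, rose (0.63, adjusted p = 0.00247). Ccl2, a chemokine, was at 603 ± 6.51 on basal TRAP arrays and 4136 ± 3599 on TRAP arrays (SD, n = 2), where its basal level also went with the array sets, at 3700 ± 429 on the basal arrays of the PTX experiment. Its response to thrombin was 1.65, uncalled in the main fit (adjusted p = 0.149) but called by a fit that blocked on the sets (adjusted p = 4.17e-06). The rise of Ccl2 after TRAP was 2.41 with all arrays (adjusted p = 0.0384). It was 1.38 without the 2 arrays outside the set of their basal arrays. After PTX and TRAP Ccl2 then went from -0.24 (adjusted p = 0.874) to 0.86. Without those arrays 2 target genes were called after TRAP and 2 after PTX and TRAP, Edn1 and Ccl2 in both, with Edn1 at 0.60 and 0.88 (adjusted p = 0.0414 and 0.00862). Tgfbr1, a receptor of transforming growth factor beta, rose in the average (0.28, adjusted p = 0.00943).

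Of 16 tested regulators upstream of Klf genes, 2 rose and 1 fell after thrombin, 3 rose and 1 fell after TRAP, and 1 rose after PTX and TRAP, with medians of 0.09, 0.01 and 0.10. Egr1, an early response factor, rose in all 3 responses by 1.60 to 2.38 (adjusted p of at most 1.35e-06). Srf, which encodes serum response factor, rose after thrombin (1.28, adjusted p = 1.35e-05) and TRAP (0.54, adjusted p = 0.0122). When the 2 arrays outside the set of their basal arrays were left out, Egr1 and Bmpr2 were the regulators called after TRAP, and Srf was at 0.50 (adjusted p = 0.101). Foxo3, a growth arrest factor, fell after thrombin (-1.01, adjusted p = 0.00173), and Mef2a rose in the average (0.34, adjusted p = 0.0057). Because Klf9 and Klf15 are known glucocorticoid targets, 9 tested glucocorticoid-induced genes were set beside them: 3 rose after thrombin, 5 after TRAP and 3 after PTX and TRAP, with medians of 0.15, 1.09 and -0.06. Sgk1 rose by 2.05 to 2.32 and Errfi1 by 1.39 to 2.15 in the 3 responses. Cebpd rose after TRAP (1.99) and after PTX and TRAP (1.01), and Nfkbia after TRAP (1.78). For thrombin Nfkbia was at 0.82, uncalled in the main fit (adjusted p = 0.215) but called when the fit blocked on the sets (adjusted p = 0.000475). Cebpd, Nfkbia and Mt2A, the last named after its values were seen, also had basal levels that went with the array sets: means on the basal arrays of the TRAP and of the PTX experiment were 247 and 574 for Cebpd, 140 and 294 for Nfkbia, and 168.5 and 439 for Mt2A. With the same 2 arrays left out, the same 5 genes were called after TRAP, with a median of 0.74, Cebpd at 1.59, Nfkbia at 1.27 and Mt2A at 0.74. After PTX and TRAP 4 were then called, with a median of 0.25, Cebpd at 1.27 and Nfkbia at 1.37 (adjusted p = 0.00522 and 0.000243). Tsc22d3, named after its value was seen, fell in the average (-0.35, adjusted p = 0.0205).

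Genes whose signal followed Klf6 most closely over the 12 arrays, by Pearson's r among 9905 other genes, were Otud1 (0.942), Tnfrsf11b (0.933), Klhl41 (0.928) and Cdc42bpb (0.918). The first 3 of them rose after thrombin. For Klf15 they were Ift70b (0.958), Zmynd8 (0.952), Zfp157 (0.947) and C15h8orf58 (0.941), the last of which fell in each of the 3 responses. The arrays behind these correlations share experiments and basal levels.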

How the data were processed

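Total RNA of 12 samples was labelled with biotin and hybridised to one-colour Affymetrix arrays of 31099 probe sets. The deposited values are linear intensities, which the authors made with GCOS 1.4, per the submitters' processing notes; from the values, each array is scaled to about the same trimmed mean, and no other normalization was seen. Genes were named through the platform annotation where it lists a single symbol. From the deposited intensities, log2(signal + 16) was taken, which understates changes of dim probe sets. After removal of 57 control probe sets, the 18625 whose mean log2 signal exceeded its 40th percentile were fitted with limma 3.58.1 in R 4.3.3 (one mean per group, 6 residual degrees of freedom, intensity trend, 2-sided, Benjamini-Hochberg over all kept probe sets). Adjusted p is limma's throughout. Detection calls were not used here, and 2 arrays a group limit the precision. The script was tested on simulated data.

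All 8 members are named. From each gene list up to 4 genes with the smallest p in the average, with any called there by at least 2-fold, are named, and the 4 genes closest to the members with the largest rise and fall. Members and lists were chosen with earlier results of these data known. Alternatives covered pseudocount, filter, scaling, trend, blocks, control arrays, the probe set taken for a gene, and each array left out. Those on the sets of arrays, the crossed block and the dimmest probe set were chosen after seeing the data.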

Additional observations from a re-analysis of the deposited data

Results flagged for a closer look

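The response of Klf6 differed between the thrombin and TRAP experiments by 1.65 on the log2 scale, and that of Klf7 by 1.52, each by limma's test of the difference (adjusted p = 0.00328 and 0.00931). For Klf6 the basal thrombin arrays, at 245.4 and 296.9, stood below the basal TRAP arrays, at 930.3 and 843.3. For Klf7 they stood at 47.3 and 46.6, against 117.5 and 162.9. Whether the stimulus or the experiment goes with the difference cannot be told apart.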

How the results depend on the processing

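Of 29 alternatives, 12 left out an array each. Called genes then numbered 1 to 4 after thrombin (1 without thrombin replicate 2), 1 to 2 after TRAP, 1 to 3 after PTX and TRAP, 5 to 6 in the average, 1 to 2 for thrombin minus TRAP, 0 for the PTX effect and 7 to 8 among basal groups. The 6 basal arrays as a joint control mix experiments of unlike level: counts were then 1, 0, 0 and 1 for the 3 responses and the average and 0 for thrombin minus TRAP, the Klf6 difference turned to -0.008 and the Klf7 thrombin response to -0.1977. After TRAP the count was 1 with no filter, with median centring and with quantile normalization. After PTX and TRAP it was 1 with the mean of a gene's probe sets. Without replicate 1 of TRAP and of TRAP after PTX together, Klf7 and Klf9 were at -0.99 and 0.50 after PTX and TRAP, as described above. With the dimmest probe set, counts were 0 after TRAP, 1 after PTX and TRAP, 3 in the average, 0 for thrombin minus TRAP and 5 among basal groups. Ccl2 after PTX and TRAP turned from -0.24 to 0.8239 with the array sets as a block and to 0.8631 without replicate 1 of both. The cause was not tested. Depth in the sense of read counts does not apply to arrays; 2 arrays a group limit all calls.

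Replicate numbers were not taken to pair arrays, since deviations of same-numbered basal and stimulated arrays correlated by 0.134, 0.104 and 0.0217. The replicate block left every count as it was (3 after thrombin, 2 after TRAP, 3 after PTX and TRAP, 5 in the average, 2 for thrombin minus TRAP, 0 for the PTX effect, 8 among basal groups), as did the crossed block.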
